A study of Mus musculus with 2 samples.

Results

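Heat shock proteins are molecular chaperones, and 10 of their genes were followed here in interstitial cells of the infarcted mouse ventricle: Hspb1, Hspd1, Hspe1, Hsp90aa1, Hsp90ab1, Hspa8, Hspa1a, Hspa1b, Dnajb1 and Hsph1. They were taken by gene symbol from the 16846 genes of the object that holds all cells, and all 10 were also among the 15059 genes of the object that holds fibroblasts alone. The study made 2 droplet single-cell libraries (10x Chromium, V3.1 chemistry), 1 per genotype, from ventricles of mice that had undergone myocardial infarction (MI). Control mice carried PostnMCM, in which the Postn gene drives a Cre recombinase that tamoxifen switches on; Postn is turned on when injury converts fibroblasts into myofibroblasts. The other library came from Yapfl/fl;Wwtr1fl/+;PostnMCM mice, in which both Yap alleles and 1 Wwtr1 allele can be deleted in Postn-expressing cells. Both strains also carried a Cre-dependent R26-eGFP reporter; how many hearts went into a library is not given in the sources used here. Tamoxifen chow (0.4 g/kg) was given from MI onward, and the labels place collection at 6 days after MI, whereas the study's text gives a later day. Because Cre also acted in the controls, the comparison asks what loss of the floxed alleles adds to Cre activity itself.

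Chaperones bind unfolded or partly folded proteins and keep them from aggregating. HSP70 proteins work in a cycle with J-domain partners, which deliver clients, and with nucleotide exchange factors, which release them; HSP90 acts later in folding and on signaling proteins, HSP60 and HSP10 fold proteins inside mitochondria, and small heat shock proteins hold unfolded clients. Transcription of the inducible members is driven by HSF1, a factor that binds repeats of the unit nGAAn in alternating orientation. Stress-inducible chaperones and immediate early genes are also known to respond to the enzymatic dissociation of tissue.

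Promoter windows of 300 bases (250 before to 50 after the annotated start, RefSeq, build GRCm38.p6) were found for 7 of the 10 members, and 3 are shown because they belong to Hspb1, which was past -0.25 in every fibroblast table, and to 2 pairs of members that had the same sign in each table that holds both. Capitals mark matches to the 2-unit motifs GAANNTTC and TTCNNGAA, both of which read the same on either strand.
Hspb1, chr5:135887669-135887968, plus strand: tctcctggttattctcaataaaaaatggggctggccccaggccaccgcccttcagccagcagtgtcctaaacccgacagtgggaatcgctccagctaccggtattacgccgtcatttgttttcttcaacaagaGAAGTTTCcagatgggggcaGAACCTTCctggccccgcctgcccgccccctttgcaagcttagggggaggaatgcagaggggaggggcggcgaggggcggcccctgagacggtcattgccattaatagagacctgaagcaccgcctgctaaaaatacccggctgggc
Hspa1a, chr17:34972107-34972406, minus strand: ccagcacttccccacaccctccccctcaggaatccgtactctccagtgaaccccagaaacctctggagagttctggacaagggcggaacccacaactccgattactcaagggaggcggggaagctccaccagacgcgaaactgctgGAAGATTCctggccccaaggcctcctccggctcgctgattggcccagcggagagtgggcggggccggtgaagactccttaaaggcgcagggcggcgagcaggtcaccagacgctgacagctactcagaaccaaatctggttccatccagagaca
Hspe1, chr1:55087898-55088197, plus strand: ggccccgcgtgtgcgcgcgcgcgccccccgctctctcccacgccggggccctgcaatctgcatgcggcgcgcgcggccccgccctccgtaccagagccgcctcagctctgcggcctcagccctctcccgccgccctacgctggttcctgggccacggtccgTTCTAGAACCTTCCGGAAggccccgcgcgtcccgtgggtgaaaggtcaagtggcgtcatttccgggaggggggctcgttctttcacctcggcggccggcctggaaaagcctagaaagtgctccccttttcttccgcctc

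The Hspe1 window is also a promoter of Hspd1, which lies head to head with Hspe1: 1 of the 2 Hspd1 windows overlaps it by 285 bases. In it the 2-unit motifs overlap and form the 3-unit motif GAANNTTCNNGAA (TTCNNGAANNTTC on the other strand), which 0.603% of all 32851 promoter windows hold. GAANNTTC was found in 7.86% and TTCNNGAA in 8.52% of all windows. Of the 7 members with a window, 6 held GAANNTTC, and 3 (Hspd1, Hspe1 and Hsph1) held TTCNNGAA and the 3-unit motif; Dnajb1 held neither. The windows of Hspa1a and Hspa1b were identical at 296 of 300 bases. A match is a description of these letters and not evidence that a factor binds there.

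All values below come from the authors' deposited comparisons within single clusters: the percent of cells with a corrected count in each library, and an average log2 fold change, the library labelled depleted over control. With 1 library per genotype there was no replicate, so no value carries an error and no difference was tested; every statement describes these 2 libraries. Cell numbers and counts behind each value are not part of the tables. In several tables the shares took few distinct values, so few cells may stand behind them. There were 21 such values in control and 12 in the library labelled depleted over all genes of cluster 17, 18 in control in cluster 9, 12 in control in clusters 10 and 18, 41 and 11 in subcluster 4, and 24 and 22 in subcluster 5, against 242 and 160 in cluster 5. A table of an entire cluster lists a gene only if it reached 25% of cells in one library or the other and its log2 fold change was at least 0.25 in size, whereas the 4 fibroblast subcluster tables list all genes. Among the targeted transcripts, Yap1 was at 0.07, 0.31, 0.04 and 0.26 and Wwtr1 at 0.15, -0.30, -0.21 and -0.16 in subclusters 0, 3, 4 and 5. Counts near the end of a transcript may not register the loss of a floxed exon, so these values do not check the labels, and the second library is called "labelled depleted" throughout. Abundant neutrophil transcripts were found in many cells of other types, in many tables more often in the control library. Values of S100a8 and S100a9 are given with members listed in the same clusters, and what part they have in the members' values was not tested.

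Across the 18 cluster tables the members were listed 24 times out of 180 possible gene-cluster pairs, 14 times higher (7.78% of pairs) and 10 times lower (5.56%) in the library labelled depleted. Among all genes, 2.43% of gene-cluster pairs were listed higher and 2.66% lower. The all-gene pairs include those in which a gene stayed below 25% of cells and could not be listed. The shares of members and of all genes are therefore not matched for expression level. Several of the wider chaperone lists described below had shares of similar size, and others smaller ones. Of the members' listings 58.3% were higher, against 47.7% of the 15431 listings of all genes. Cluster 17, the dendritic cells, contributed 6 of the 14 higher listings and none of the lower ones, in the longest of the cluster tables (4.7% of all genes higher and 6.66% lower), and without it 44.4% of the listings were higher. The listings fell in 10 clusters; the neutrophil clusters 1 and 18, the B cell cluster 2, the T cell clusters 4, 7 and 8, and clusters 6 and 15 listed no member. A gene that is not listed has no value in that cluster, which is different from a value of 0. Of the fibroblast subclusters, 0 and 4 were mainly control cells and 3 and 5 came from both libraries; subcluster 0 was named for IGF-binding and epicardial markers, 3 for proliferation, 4 for matrifibrocyte markers and 5 for matrix secretion. Within fibroblasts 13 of the 40 subcluster values of the members were at -0.25 or below, 4 at 0.25 or above, and 23 between these limits, where 17% of the values of all genes that reached 25% of cells were lower and 18% higher.

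**Figure D1:**
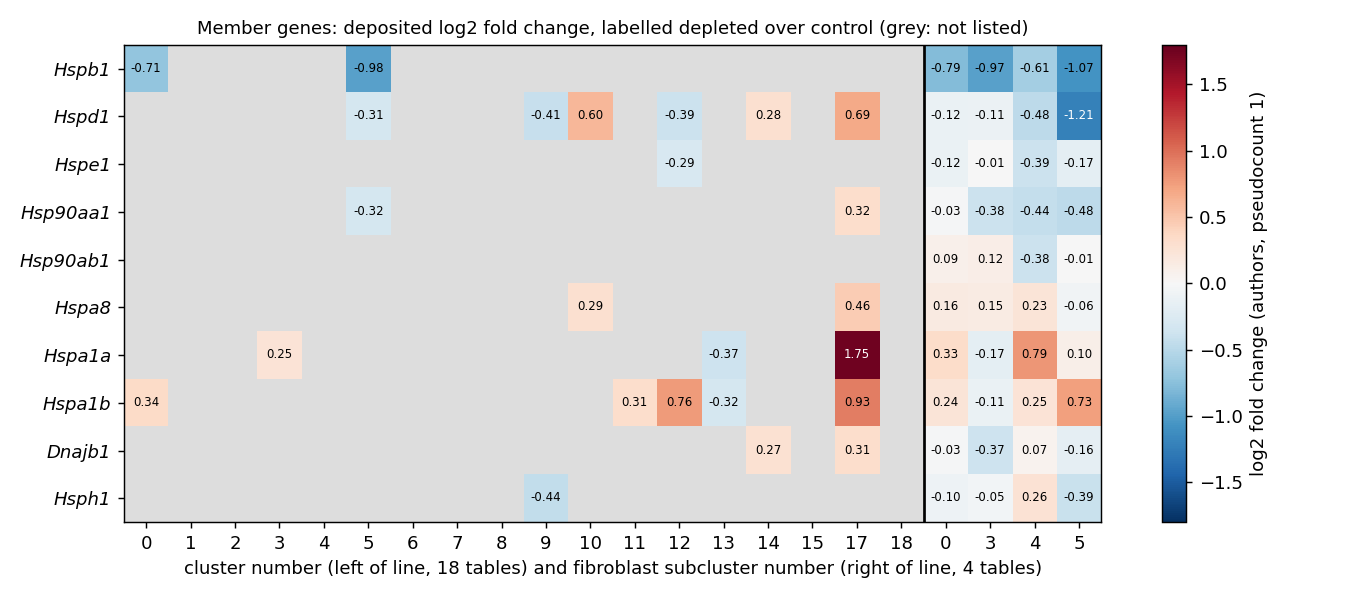
Log2 fold change (color, and printed in each cell) of the 10 members (rows) in the 18 cluster tables and the 4 fibroblast subcluster tables (columns), library labelled depleted over PostnMCM control; gray cells are not listed. Hspb1 is lower wherever it has a value, and 6 members are higher in cluster 17. Hspd1 is lower in fibroblasts and in clusters 9 and 12, and higher in clusters 10, 14 and 17.

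Hspb1 (HSP27, a small heat shock protein that also binds actin filaments; chromosome 5, 135916760 to 135918417, plus strand, build GRCm39) was the member with the clearest direction in fibroblasts. In cluster 5, the fibroblasts, it was detected in 96.3% of control cells and 96.8% of cells labelled depleted, with a log2 fold change of -0.98, the 7th lowest of the 605 genes listed there. Nearly all fibroblasts of both libraries thus had a count, and the libraries differed in its average. The subclusters divide the cells of cluster 5, which were normalized again as a single set, so their values are not independent of the cluster 5 value. They gave -0.79, -0.97, -0.61 and -1.07 in subclusters 0, 3, 4 and 5. Detection was 100% in both libraries in subclusters 0, 3 and 4, and 95.7% in control and 95.2% in labelled-depleted cells of subcluster 5. Ranked from the lowest among genes that reached 25% of cells in one library or the other, Hspb1 was 41st of 8490 genes in subcluster 0 and 22nd of 9015 in subcluster 3; it was 228th of 9130 in subcluster 4 and 111th of 8349 in subcluster 5. The pseudocount in the fold change shrinks the values of weakly expressed genes, so these ranks also depend on expression level. Hspb1 was below 0 in 4 of 4 subclusters, and no other member was past -0.25 in all of them. Cluster 5 also lists the neutrophil transcripts S100a8 in 32.6% of control cells and 5.9% of cells labelled depleted and S100a9 in 49.7% and 9.1%.

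Outside fibroblasts Hspb1 was listed once, in cluster 0, a macrophage and monocyte cluster, at -0.71 with 25% of control cells and 9.9% of cells labelled depleted. The same table lists S100a8, a neutrophil transcript, in 68.3% and 34.3% of cells, and S100a9 in 54.8% and 20.3%, both of which monocytes can also express. None of the 8 fibroblast markers was listed in cluster 0, while Col3a1 was listed lower in clusters 3, 7, 9, 10, 12, 14, 15, 17 and 18. The part of free RNA in the Hspb1 value was not tested. Cryab, another small heat shock protein, was listed once, in cluster 5, at -0.60 (84.9% of control cells and 71.1% of cells labelled depleted). It was at -0.11, -0.40, -0.09 and -0.0086 in subclusters 0, 3, 4 and 5.

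Hspd1 (HSP60, the mitochondrial chaperonin; chromosome 1, 55116989 to 55171038, minus strand) was the member listed in the most clusters, 3 times higher and 3 times lower. It was lower in cluster 5 at -0.31 (76.2% of control cells, 64.2% of cells labelled depleted), in cluster 9 at -0.41 (82.4% and 68.3%) and in cluster 12, macrophages and monocytes, at -0.39 (43.8% and 31.6%). It was higher in cluster 17 at 0.69, where 55% of control cells and 90.9% of cells labelled depleted had a count. In 2 further clusters the average and the share went in opposite directions: cluster 10 (proliferating T cells) had 0.60 with 81.8% and 75.8% of cells, and cluster 14 (natural killer cells) had 0.28 with 55.7% and 42.3%. Clusters 9 and 10 came mainly from the library labelled depleted. Col3a1, a fibroblast transcript, was found less often in the library labelled depleted in each of these clusters other than cluster 5, in 41.2% of control cells and 16.9% of cells labelled depleted in cluster 9, 45.5% and 17.2% in cluster 10, 30.2% and 19% in cluster 12, 26.6% and 11.5% in cluster 14, and 35% and 0% in cluster 17. Dcn was in 30.2% and 6.3% in cluster 12, S100a8 in 58.8% and 27.5% in cluster 9, and S100a9 in 45.5% and 25.8% in cluster 10.

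In the fibroblast subclusters Hspd1 was below 0 each time, from -0.11 in subcluster 3 and -0.12 in subcluster 0 to -0.48 in subcluster 4 and -1.21 in subcluster 5. That last value was the lowest of any member in any table and the 72nd lowest of 8349 genes. Detection there was 100% in control cells and 85.7% in cells labelled depleted, against 100% in both libraries in subcluster 3. Subclusters 0 and 4 had 95.9% and 97.5% of control cells and 87.5% and 90% of cells labelled depleted.

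Hspe1 encodes HSP10, the cofactor that closes the HSP60 chamber, and lies at 55127260 to 55130476 on the plus strand of chromosome 1, within the span of Hspd1 as GENCODE M39 draws it. It was listed in cluster 12 alone, at -0.29, with a share that hardly moved (63.5% and 64.6%). Every subcluster had it in 100% of cells of both libraries, with log2 fold changes of -0.12, -0.011, -0.39 and -0.17 in subclusters 0, 3, 4 and 5. The pair had the same sign in all 5 tables that hold both genes, but not the same size: in subcluster 5 Hspd1 was at -1.21 and Hspe1 at -0.17. Over their 8 subcluster values, 3 were at -0.25 or below and none at 0.25 or above, where 17% and 18% of the values of all genes were.

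Hsp90aa1, the stress-inducible cytosolic HSP90 (chromosome 12, 110656842 to 110669166, minus strand), was below 0 in all 4 subclusters and past -0.25 in 3. Its values were -0.026, -0.38, -0.44 and -0.48 in subclusters 0, 3, 4 and 5, with 100% of cells of both libraries each time. Cluster 5 lists it at -0.32 (99.3% and 98.9% of cells). Its only other listing was higher, in cluster 17 at 0.32, although fewer cells labelled depleted had a count (81.8%) than control cells (95%). Hsp90ab1, the constitutive HSP90 (chromosome 17, 45878552 to 45891949, minus strand), was the member that no cluster lists. Its subcluster values were 0.09, 0.12, -0.38 and -0.0093 in subclusters 0, 3, 4 and 5, again with 100% of cells of both libraries. The 2 genes had the same sign in 2 of 4 tables.

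**Figure D2:**
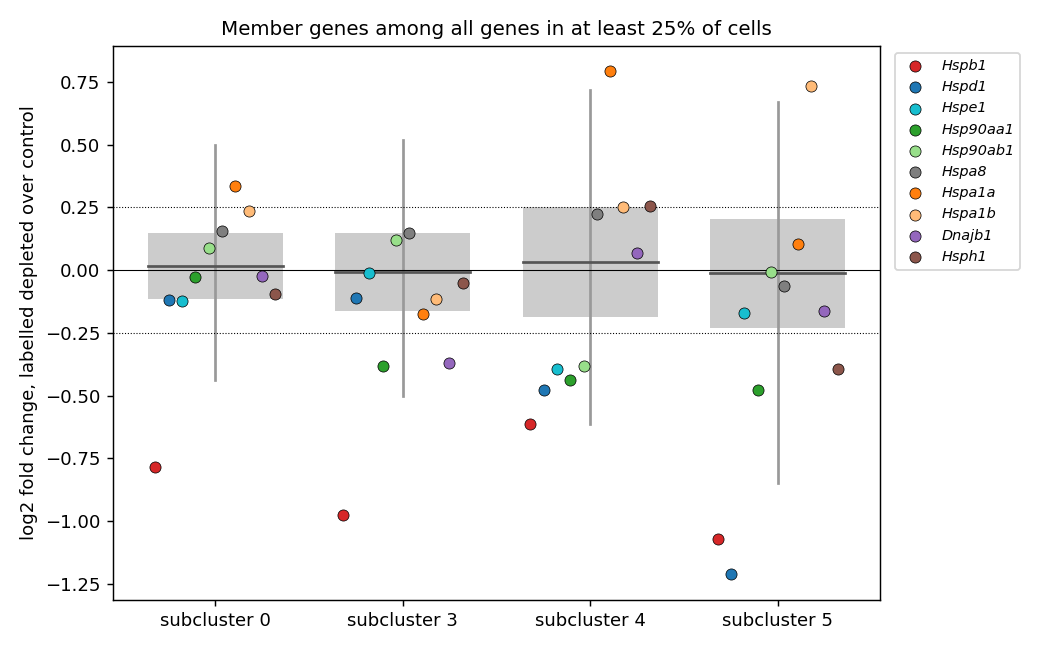
Log2 fold change of each member (colored points) in the 4 fibroblast subclusters. The line runs from the 2.5th to the 97.5th percentile and the gray box from the 25th to the 75th of all genes that reached 25% of cells in one library or the other (8349 to 9130 genes), the bar in the box is their median, and dotted lines mark -0.25 and 0.25. Hspb1 lies below the line of all genes in all 4 subclusters, Hspd1 only in subcluster 5, and Hspa1a in subcluster 4 and Hspa1b in subcluster 5 lie above it.

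Hspa8 (HSC70, the constitutive HSP70; chromosome 9, 40711630 to 40731039, plus strand) was listed in 2 clusters, both times higher: at 0.29 in cluster 10 (100% of control cells, 99.5% of cells labelled depleted) and at 0.46 in cluster 17 (100% of both). Its subcluster values stayed inside the limits, at 0.16, 0.15, 0.23 and -0.06 in subclusters 0, 3, 4 and 5, with 100% of cells of both libraries.

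The inducible HSP70 genes Hspa1a (chromosome 17, 35188166 to 35191132, minus strand) and Hspa1b (chromosome 17, 35175412 to 35178214, minus strand) are neighbors whose transcripts aligned at 99.2% identity over 2201 bases, so reads may be split between them and each value is uncertain on its own. They had the same sign in all 6 tables that hold both, 2 of which are cluster tables. In cluster 17 both were higher: Hspa1a was listed at 0% of control cells and 54.5% of cells labelled depleted, with a log2 fold change of 1.75, the 3rd highest of 1914 genes. Hspa1b was there in 5% of control cells and 45.5% of cells labelled depleted, at 0.93. S100a8 and S100a9 were also listed higher in cluster 17, at 1.17 and 0.68, although they were in fewer cells labelled depleted (9.1% and 27.3%) than control cells (25% and 50%). In cluster 13, macrophages and monocytes, both were lower, from 28.4% to 16.9% of cells for either gene, at -0.37 for Hspa1a and -0.32 for Hspa1b.

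The other macrophage and monocyte clusters listed 1 of the pair each, always higher. Hspa1b was at 0.34 in cluster 0 (20.7% of control cells, 33.8% of cells labelled depleted), at 0.31 in cluster 11 (26.4% and 31.2%) and at 0.76 in cluster 12 (15.6% and 29.1%). Hspa1a was at 0.25 in cluster 3 (19.1% and 34.9%). The name of cluster 11 follows the study, and its cells also had the dendritic cell marker Flt3 (50% of control cells, 75% of cells labelled depleted). Lyz2, a macrophage marker, was in 76.4% and 45.8% there, against 99% to 100% in clusters 0, 3, 12 and 13. Inducible HSP70 listings in the clusters of this name thus went in both directions, 4 higher in clusters 0, 3, 11 and 12 and 2 lower in cluster 13. S100a9 was less often found in the library labelled depleted in all 5 of these clusters, in 57.1% of control cells and 26.8% of cells labelled depleted in cluster 3, 63.9% and 31.2% in cluster 11, 63.5% and 46.8% in cluster 12 and 56.8% and 29.6% in cluster 13, besides cluster 0. S100a8 was in 52.1% and 23.8% in cluster 3 and 59.7% and 27.1% in cluster 11, but in nearly equal shares in cluster 13 (51.6% and 50.7%) and in slightly more cells labelled depleted in cluster 12 (47.9% and 51.9%).

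Within fibroblasts the pair ran against Hspb1 in 3 of 4 subclusters. Hspa1a was at 0.33 in subcluster 0 (68.3% of control cells, 84.4% of cells labelled depleted), -0.17 in subcluster 3 (46.7% and 43.5%), 0.79 in subcluster 4 (65% and 80%) and 0.10 in subcluster 5 (34.8% and 47.6%). Hspa1b had a value of 0.24 in subcluster 0 (74.5% and 78.1%), -0.11 in subcluster 3 (63.3% and 60.9%), 0.24998 in subcluster 4 (77.5% and 80%), just short of the limit, and 0.73 in subcluster 5 (43.5% and 81%). Of the 12 subcluster values of the 3 HSP70 genes, 3 were at 0.25 or above and none at -0.25 or below, where 18% and 17% of the values of all genes were.

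The partners of HSP70 gave few listings. Dnajb1 (HSP40, the J-domain protein that feeds clients to HSP70; chromosome 8, 84334811 to 84339820, plus strand) was higher in cluster 14 at 0.27 (17.7% of control cells, 30.8% of cells labelled depleted) and in cluster 17 at 0.31 (10% and 27.3%). In subclusters 0, 3, 4 and 5 it was at -0.025 (44.1% and 43.8%), -0.37 (43.3% and 34.8%), 0.07 (42.5% and 50%) and -0.16 (52.2% and 52.4%). Hsph1 (HSP110, a nucleotide exchange factor of HSP70; chromosome 5, 149537636 to 149560156, minus strand) was listed in cluster 9 alone, lower at -0.44, with 52.9% of control cells and 15.9% of cells labelled depleted. Its subcluster values ran from -0.39 in subcluster 5 (43.5% and 19%) through -0.10 in subcluster 0 (35.2% and 37.5%) and -0.05 in subcluster 3 (53.3% and 56.5%) to 0.26 in subcluster 4 (45% and 70%).

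**Figure D3:**
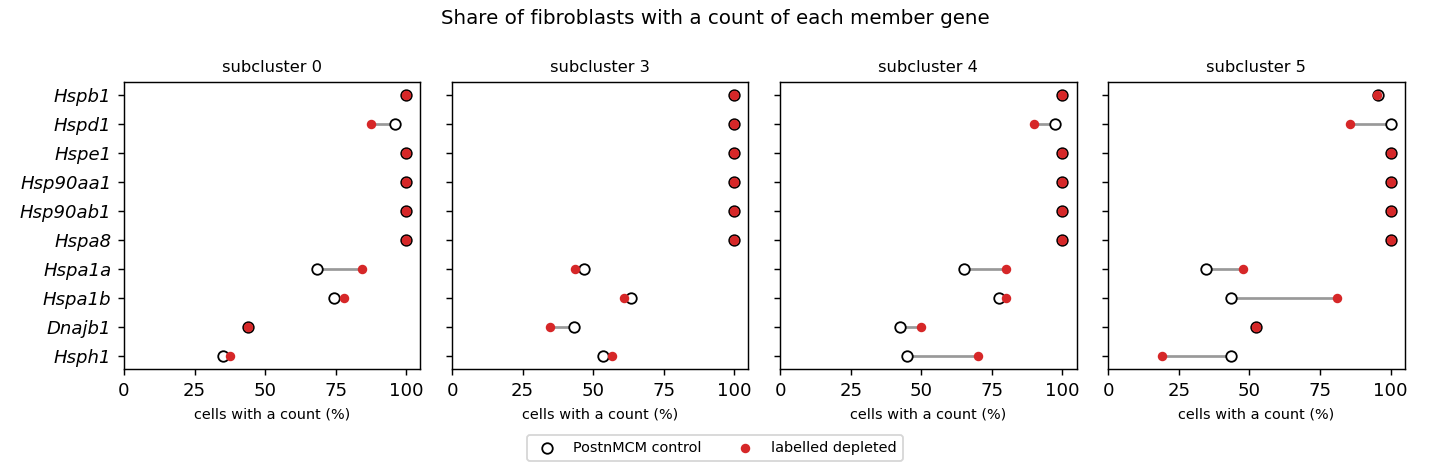
Percent of fibroblasts with a count of each member in the PostnMCM control library (open circles) and the library labelled depleted (filled circles), by subcluster. Hspe1, Hsp90aa1, Hsp90ab1 and Hspa8 sit at 100% in both libraries in every panel, whereas Hspa1b in subcluster 5 is at 43.5% in control and 81% in the library labelled depleted and Hsph1 at 43.5% and 19%.

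By subcluster, the 10 members, all of which reached 25% of cells in one library or the other, divided as follows. In subcluster 0, 1 member was at 0.25 or above and 1 at -0.25 or below, against 12.5% and 9.87% of all 8490 genes. Subcluster 3 had 0 higher and 3 lower, against 13.8% and 15.1% of 9015 genes. Subcluster 4 had 2 higher and 5 lower, against 25.2% and 19.5% of 9130 genes. Subcluster 5 had 1 higher and 4 lower, against 20.3% and 23.5% of 8349 genes. The median of the members was -0.026, -0.11, -0.16 and -0.17 in subclusters 0, 3, 4 and 5, beside 0.015, -0.0066, 0.03 and -0.011 for all genes. Without the inducible pair Hspa1a and Hspa1b the median in subcluster 4 was -0.39 and in subcluster 5 -0.28.

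Of the 8 fibroblast markers, Col1a1, Col1a2, Col3a1 and Dcn were in 100% of cells of both libraries in all 4 subclusters. Pdgfra ranged from 38.6% to 87% of cells, and Lum, Postn and Tcf21 varied more between subclusters. Lum was in 100% of cells of both libraries in subcluster 5 and in 26.7% to 47.8% elsewhere. Postn, which drives Cre, was in 87% of control cells and 100% of cells labelled depleted in subcluster 5 but in 10% and 20% in subcluster 4, and Tcf21 was in 2.1% and 0% in subcluster 0. Transcripts of other cell types were also counted in these cells. The 4 neutrophil markers were in 17.4% to 96.7% of control cells and 0% to 71.4% of cells labelled depleted, and the 5 macrophage markers in 16.7% to 90% and 0% to 80%. T cell markers, of which 3 of 4 were found, were in 0% to 13% of control cells and 6.2% to 42.9% of cells labelled depleted, with a higher share in the latter in all subclusters for each marker except Cd3d in subcluster 0 (11.7% and 9.4%). Retnlg was at 0% in subcluster 4 and Cd68 at 0% in subcluster 5 in the library labelled depleted. Cardiomyocyte markers, of which all 4 were found, reached at most 20% in either library. Whether these transcripts bear on the members' values was not tested.

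Immediate early genes (16 on the list) were examined beside the members. In cluster 17, where Hspa1a and Hspa1b were higher, 8 immediate early genes were listed lower and 1 higher (6.66% and 4.7% of all genes), with Fos at -0.79 and Junb at -1.23. In cluster 13, where the pair was lower, 10 were listed higher and 1 lower (3.13% and 2.17% of all genes), with Fos at 1.26 and Dusp1 at 1.72. Cluster 12, with Hspa1b at 0.76, listed 6 higher and 0 lower (1.81% and 2.05% of all genes). Clusters 0, 3 and 11 also listed 1 of the pair higher, and of 16846 genes they listed 569, 217 and 339 higher and 354, 142 and 390 lower. Immediate early genes gave 3, 2 and 1 higher and 3, 1 and 3 lower listings there. In subcluster 5, 12 of the 15 that were in at least 25% of cells were at -0.25 or below and none at 0.25 or above (23.5% and 20.3% of all genes), and their median was -0.63. In subcluster 3 they divided into 5 higher and 3 lower of 15 (13.8% and 15.1% of all genes). Fos, Jund, Klf2 and Dusp1 were listed most often, each in 8 clusters; of the 2 with the larger median size, Dusp1 was higher in 7 and Klf2 in 3. Klf2 differed from most of the list in cluster 17 (0.52) and cluster 13 (-0.79). The part of tissue dissociation in the values of the members was not tested.

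The wider chaperone network was examined through lists assembled by function. The endoplasmic reticulum (ER) chaperones, which fold secreted and membrane proteins, had the most listings of any chaperone list, 18 higher and 45 lower over the 18 clusters. These were 7.69% and 19.2% of their gene-cluster pairs, against 2.43% and 2.66% for all genes, including genes too rarely detected to be listed. In cluster 5, 11 of the 13 were listed lower and none higher, where 2.04% of all genes were listed lower and 1.56% higher. Among these were Pdia6 (a protein disulfide isomerase) at -0.92, Calr (calreticulin) at -0.77, Hsp90b1 (GRP94, the HSP90 of the ER) at -0.75, Manf at -0.72 and Hspa5 (BiP, the HSP70 of the ER) at -0.52. In the subclusters 12 of 13 were lower in subcluster 0, 10 of 13 in subcluster 3 and 13 of 13 in subcluster 5, none of them being higher. Of all genes that reached 25% of cells, 9.87%, 15.1% and 23.5% were lower there and 12.5%, 13.8% and 20.3% higher. Subcluster 4 had 3 lower and 2 higher, against 19.5% and 25.2% of all genes. The medians of this list were -0.48, -0.53, 0.019 and -0.76 in subclusters 0, 3, 4 and 5, beside 0.015, -0.0066, 0.03 and -0.011 for all genes.

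For some widely expressed ER genes the average differed in fibroblasts while the share of cells did not. Hspa5 had a count in 100% of cells of both libraries in each subcluster, at -0.35, -0.30, 0.39 and -1.34 in subclusters 0, 3, 4 and 5. Outside fibroblasts it was listed mostly higher, in 6 clusters (0, 1, 8, 13, 14 and 18, up to 0.66), and lower in cluster 17 (-0.26) besides cluster 5. Calr was listed lower in 7 of the 8 clusters that list it and higher in cluster 13 (0.37). Immediate early genes were lower along with the ER list in subcluster 0 (9 of 16 lower, 2 higher, against 9.87% and 12.5% of all genes) and subcluster 5, but not in subcluster 3. What part the 2 groups share was not tested.

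**Figure D4:**
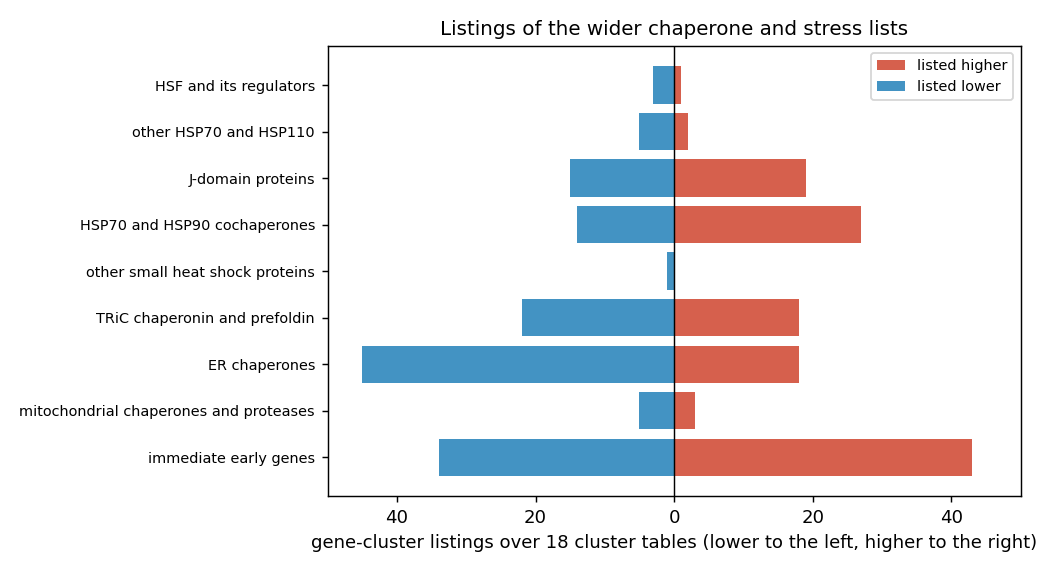
Number of gene-cluster listings over the 18 cluster tables for each wider list, lower to the left and higher to the right of 0. The ER chaperones have 45 lower and 18 higher, the HSP70 and HSP90 cochaperones 14 lower and 27 higher, and the immediate early genes 34 lower and 43 higher.

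The other larger lists held listings in both directions. J-domain proteins other than Dnajb1 (16 genes) were listed 19 times higher and 15 times lower (6.60% and 5.21% of pairs), with Dnajc15, a mitochondrial member, higher in 6 clusters (up to 0.81 in cluster 14) and lower in cluster 5 (-0.73). Dnajc15 was at -1.28, -0.45, -1.36 and 0.016 in subclusters 0, 3, 4 and 5. Dnajb11, which works in the ER, was listed lower in 4 clusters and higher in 1, from -0.40 to 0.48. Cochaperones of HSP70 and HSP90 (19 genes) had 27 higher and 14 lower (7.89% and 4.09%), with Ptges3 (p23, an HSP90 cochaperone) from -0.39 to 0.53 over 6 clusters and Fkbp5 from -0.46 to 0.50 over 5. The TRiC chaperonin and prefoldin (14 genes), which fold actin and tubulin, had 18 higher and 22 lower (7.14% and 8.73%). Cct2 was lower in all 4 clusters that list it (-0.33 to -0.30), while Cct3 was listed higher in 3 and lower in 4.

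Mitochondrial chaperones and proteases other than Hspd1 and Hspe1 (7 genes) had 3 higher and 5 lower (2.38% and 3.97%). Hspa9, the mitochondrial HSP70, was at -0.87 in subcluster 5, the subcluster with the lowest Hspd1, and at 0.09, 0.38 and -0.30 in subclusters 0, 3 and 4. Grpel1, its exchange factor, was listed lower in 2 clusters (-0.38 and -0.29). Other HSP70 and HSP110 genes (8 genes) had 2 higher and 5 lower (1.39% and 3.47%), with Hspa4 lower in 3 clusters (-0.50 to -0.27) and Hspa14 higher in 2 and lower in 2. On the list of HSF factors and their regulators, Hsbp1, an HSF1-binding protein, alone was listed, lower in 3 clusters and higher in 1 (-0.42 to 0.25). Hsf1 itself was in no cluster table, and was at -0.06, -0.27, 0.23 and -0.016 in subclusters 0, 3, 4 and 5.

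The genes whose listings were most like those of Hspd1, over the 6 clusters that list it, were Lgals1 (same direction in 6 of 6), Eif2s1 and Gpx4 (same direction in 4, opposite in none). Lgals1 was the only gene at 6.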

How the data were processed

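The authors aligned reads with Cell Ranger 6.1.1 to GRCm39 (NCBI annotation, with reporter sequences), aggregated both libraries without depth normalization, applied SCTransform in Seurat with regression of the mitochondrial percentage, and clustered cells; fibroblasts were then processed again alone. No doublet caller is named. Cluster and subcluster names, and which library they mainly came from, follow the study. The deposited tables hold, per gene, the fraction of cells with a corrected count in each library (printed as a percent), a log2 fold change of mean corrected counts with a pseudocount of 1, and p-values over cells. That pseudocount shrinks differences of weakly expressed genes. The deposited p-values were used only to recover the number of genes in each object. Cluster 16 and subclusters 1 and 2 were not analysed here.

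Rows of the 10 genes were taken from all 22 tables. Listings were counted by direction; in subclusters, genes that reached 25% of cells in one library or the other were counted past 0.25. Python 3.11.15, pandas 2.3.3 and blastn 2.17.0 (identity of at least 95% over at least 200 bases) were used, and counting was tested on simulated data. Pseudogene copies of Hspa8, Hsp90aa1, Hspb1 and Hspd1 found this way were in no table under their GENCODE names. Gene positions are GENCODE M39 (GRCm39). The tables give neither depth per cell nor cell numbers, and counts were not inferred from rounded shares, so no interval is given. The members and lists were chosen with earlier results of these data known. Besides the 10 members and the comparison genes, from each wider list the 2 genes listed in most clusters were named (ties by the larger median size of the log2 fold change), with others chosen after their values were seen. Alternatives were a size limit of 0.5 or 1, a 10% share limit, ratios of shares, centring, the mean, and leaving out clusters or genes.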

Additional observations from a re-analysis of the deposited data

Results flagged for a closer look

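Hspd1 was the member with values of at least 0.5 in size in both directions, a limit chosen after the values were seen. Its log2 fold change was -1.21 in fibroblast subcluster 5 (100% of control cells and 85.7% of cells labelled depleted) and 0.69 in cluster 17, the dendritic cells (55% and 90.9%). The difference between these populations was not tested.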

How the results depend on the processing

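No paired analysis was possible because there was a single library for each genotype. When each of the 10 clusters that list a member was left out in turn (the other 8 cannot change these values), the number of member listings went down to as few as 18 of 24 and the percent higher from 44.4% to 66.7%; leaving out cluster 17 turned the direction (44.4%). A size limit of 0.5 left 7 of the 24 listings (5 higher), and turned the wider chaperone lists from 88 higher and 110 lower listings to 15 higher and 13 lower; a limit of 1 left 1 listing, which was higher (100%). Centring on the median of listed genes left 13 member listings, and 38 higher and 34 lower on the wider lists, again more higher than lower. It turned Hspa1a in cluster 3 to -0.024. Because every listed gene is at least 0.25 in size, the median that is subtracted is as large, and these shifts follow from that construction.

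The log2 ratio of shares, which is at its ceiling where nearly all cells have a count, left 14 member listings (7 higher) and turned 6 single values: Hspb1 in cluster 5 (0.0075), Hspa8 in cluster 10 (-0.0072), Hspd1 in cluster 10 (-0.11) and cluster 14 (-0.40), Hspe1 in cluster 12 (0.025) and Hsp90aa1 in cluster 17 (-0.22). It put the member medians at 0 in subclusters 3, 4 and 5, left 0, 1, 0 and 1 members lower in subclusters 0, 3, 4 and 5 and 2 higher in subcluster 5, and left 1 table for Hspd1 with Hspe1 (0 of the same sign) and 0 tables for the HSP90 pair.

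In the subclusters, a limit of 0.5 left 0 members higher in subcluster 0, 1 lower in subcluster 3, 1 higher and 1 lower in subcluster 4, and 2 lower in subcluster 5. Centring left 1 higher in subcluster 4. Without Hspa1a and Hspa1b, 0, 1 and 0 were higher in subclusters 0, 4 and 5, and the medians in subclusters 4 and 5 were -0.39 and -0.28. The mean in subcluster 5 was -0.27. Hspb1 remained lower in all subclusters under centring. The cause of the other shifts was not tested.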
